A study of Homo sapiens with 8 samples.

Results

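The G2 and mitosis genes described here are 32 genes that cells need to leave interphase and divide: mitotic cyclins, kinases, kinesins, kinetochore and spindle proteins, chromosome proteins and the transcription factors that switch such genes on. They were chosen by symbol, through the NCBI Gene ID that RefSeq pairs with it, and all 32 had a row among the 18555 genes of the count table. RNA-seq was done on 3 siXBP1 libraries, from cells transfected with an siRNA specific for XBP1, and 3 siNC libraries, from cells transfected with the Allstar control siRNA. Cells of both groups are labelled HepG2, a human hepatocellular carcinoma (HCC) line, and both received 30 nM thapsigargin for 3 hours, 2 days after transfection. The comparison therefore concerns XBP1 knockdown under stress of the endoplasmic reticulum (ER), with no arm free of thapsigargin. XBP1s, the spliced product of XBP1, is a transcription factor of the unfolded protein response, and the series concerns its part in HCC together with the Wnt pathway factor LEF1.

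Mitosis is driven by CDK1 bound to cyclin A or cyclin B, and it ends when the anaphase-promoting complex has these cyclins and other proteins destroyed. Most genes of this programme are silent in early G1 and are transcribed late in the cell cycle by the MuvB complex with MYBL2 and then FOXM1. Their promoters often hold CCAAT boxes, bound by NF-Y, and the cell cycle genes homology region (CHR, commonly TTTGAA), bound by MuvB. In bulk RNA the summed level of such genes follows the share of dividing cells, so that they are widely used as markers of proliferation in liver tumours. Fewer dividing cells and less mRNA per dividing cell cannot be told apart in these data.

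The promoters show what the genes share beyond their place in the list. RefSeq promoter windows of GRCh38.p14, from 250 bases before to 50 bases after an annotated start, were found for 26 of the 32 genes, in 34 windows. AURKA, TTK, UBE2C, BIRC5, TPX2 and FOXM1 had no entry. The letters TTTGAA occurred on either strand in at least 1 window of 17 of the 26 genes (65.4%), against 18.2% of the 27305 genes with a window. In this paragraph all genes means these 27305, whether or not they were expressed or tested here. CCAAT occurred in 21 of the 26 (80.8%), against 39.7% of all genes. Within 100 bases before the start, 10 of the 26 (38.5%) held both, against 1.17% of all genes. ACGTG, a core that XBP1s is known to bind within longer elements, occurred in windows of 9 of the 26 genes (34.6%), against 24.9% of all genes. Within 100 bases before the start it occurred in 1 of the 26, BUB1B (3.85%), against 11.0% of all genes. These matches describe letters, not bound sites. Below are the 120 bases before the start of 6 genes, 5′ to 3′ along the gene's strand, with TTTGAA and CCAAT in capitals on either strand (TTCAAA and ATTGG are their reverse). They are shown because they carry the shared letters in genes whose mRNA varied in different ways between libraries: CCNB2 and CDC20 on one side, HMMR and KIF11 on the other, and PRC1 and PLK1 between them. In 5 of the 6, a TTTGAA began between 20 and 29 bases before the start, with CCAAT upstream of it, and in CDC20 it began 65 bases before the start. In HMMR, where 2 copies of TTTGAA are adjacent, a CCAAT and its reverse share letters.
PLK1: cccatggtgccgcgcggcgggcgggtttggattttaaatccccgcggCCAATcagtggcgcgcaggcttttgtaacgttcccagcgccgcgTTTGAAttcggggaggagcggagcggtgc
CDC20: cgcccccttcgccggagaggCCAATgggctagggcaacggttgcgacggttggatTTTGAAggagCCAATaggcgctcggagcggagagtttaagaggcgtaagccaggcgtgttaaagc
CCNB2: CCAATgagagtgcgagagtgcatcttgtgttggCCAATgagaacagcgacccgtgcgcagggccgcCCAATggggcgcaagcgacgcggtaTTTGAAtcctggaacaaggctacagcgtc
PRC1: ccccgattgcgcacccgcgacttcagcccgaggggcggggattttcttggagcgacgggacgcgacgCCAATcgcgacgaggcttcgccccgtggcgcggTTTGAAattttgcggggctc
KIF11: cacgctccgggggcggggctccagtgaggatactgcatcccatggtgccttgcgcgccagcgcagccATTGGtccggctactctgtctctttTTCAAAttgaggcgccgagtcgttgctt
HMMR: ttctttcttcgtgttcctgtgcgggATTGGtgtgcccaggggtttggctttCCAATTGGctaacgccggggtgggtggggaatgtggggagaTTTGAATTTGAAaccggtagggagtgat
The stretches lie at chr16:23678769-23678888 (PLK1, plus strand), chr1:43358861-43358980 (CDC20, plus), chr15:59105026-59105145 (CCNB2, plus), chr15:90994536-90994655 (PRC1, minus), chr10:92593010-92593129 (KIF11, plus) and chr5:163460512-163460631 (HMMR, plus).

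Library totals lay between 38209972 and 38890070 counts. XBP1 itself averaged 288 ± 11.4 CPM (counts per 1000000 counts in a library) in siXBP1 and 518 ± 29.5 CPM in siNC (SD, n = 3 each). The log2 fold change, -0.84 with an SE of 0.08, passed edgeR's test (adjusted p = 0.0331). The knockdown was partial, with the siXBP1 mean at 55.7% of the siNC mean. Counts per gene do not separate spliced from unspliced XBP1, so the level of XBP1s is not known from them. Along the first principal component, which held 59.2% of the variance, siXBP1 replicate 3 stood at 0.648 and siNC replicate 1 at -0.643, with the other libraries between -0.239 and 0.29. Hepatocyte markers were nearly absent, and of 14 listed only 8 had a row. The summed level of these 8 was 2.28 to 3.82 CPM in siXBP1 and 2.13 to 2.73 CPM in siNC, with AFP at no more than 0.155 CPM. Markers of other epithelia summed to 4254 to 5382 CPM in siXBP1 and 4350.4 to 5780.5 CPM in siNC (KRT7 and KRT17 held most of it), those of fibroblasts to 341 to 348 CPM in siXBP1 and 318 to 334 CPM in siNC, those of leukocytes to 40.2 to 43.5 CPM in siXBP1 and 37.2 to 43.6 CPM in siNC, and those of endothelium to 6.32 to 8.87 CPM in siXBP1 and 7.74 to 9.33 CPM in siNC. Some of these sums rested on few genes. Over the 6 libraries, the leukocyte marker CD68 averaged 41.0 CPM and PTPRC 0.49 CPM. The endothelial marker CDH5 averaged 7.07 CPM, PECAM1 0.64 CPM and VWF 0.65 CPM. Among markers of other epithelia, CDH1 averaged 0.38 CPM, EPCAM 0.026 CPM and KRT5 0.017 CPM, and among those of fibroblasts COL1A2 averaged 0.017 CPM. The part of these markers in the results was not tested. The cells are therefore called by their label only.

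No difference between siXBP1 and siNC was detectable in the G2 and mitosis genes with all 6 libraries and group as the only term of the model. Of the 32 genes, 16 had higher and 16 lower estimates in siXBP1, and their median log2 fold change was 0.00 (-0.00039), against 0.01 (0.0096) over all 14337 genes tested. None of the 32 passed edgeR's quasi-likelihood test at an adjusted p of 0.05, where 0.00697% of all genes passed (XBP1 alone), and none passed DESeq2, which called 0.118% of the genes to which it gave an adjusted p. At an unadjusted p under 0.05, edgeR found 0 of the 32, against 517 of the 14337 genes tested. At that low share few of any 32 genes would be found, so the 0 does not set these genes apart. Estimates ran from -0.18 for UBE2C to 0.10 for CDC25B, and 29 of the 32 (90.6%) lay within 0.1 of 0, against 49.9% of all genes. All genes include many with few counts, whereas each of the 32 had at least 520 counts in every library. Among 120 genes tested from 5 lists of other mitotic genes, described below, the share was 76.7%, and 68.2% to 84.2% in the separate lists. These shares lay below that of the 32 and above that of all genes. The part of count depth in these shares was not tested. The groups overlapped for every gene but PRC1, so that 1 of 32 had no overlap, where 8.75% of all genes tested had none.

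**Figure D1:**
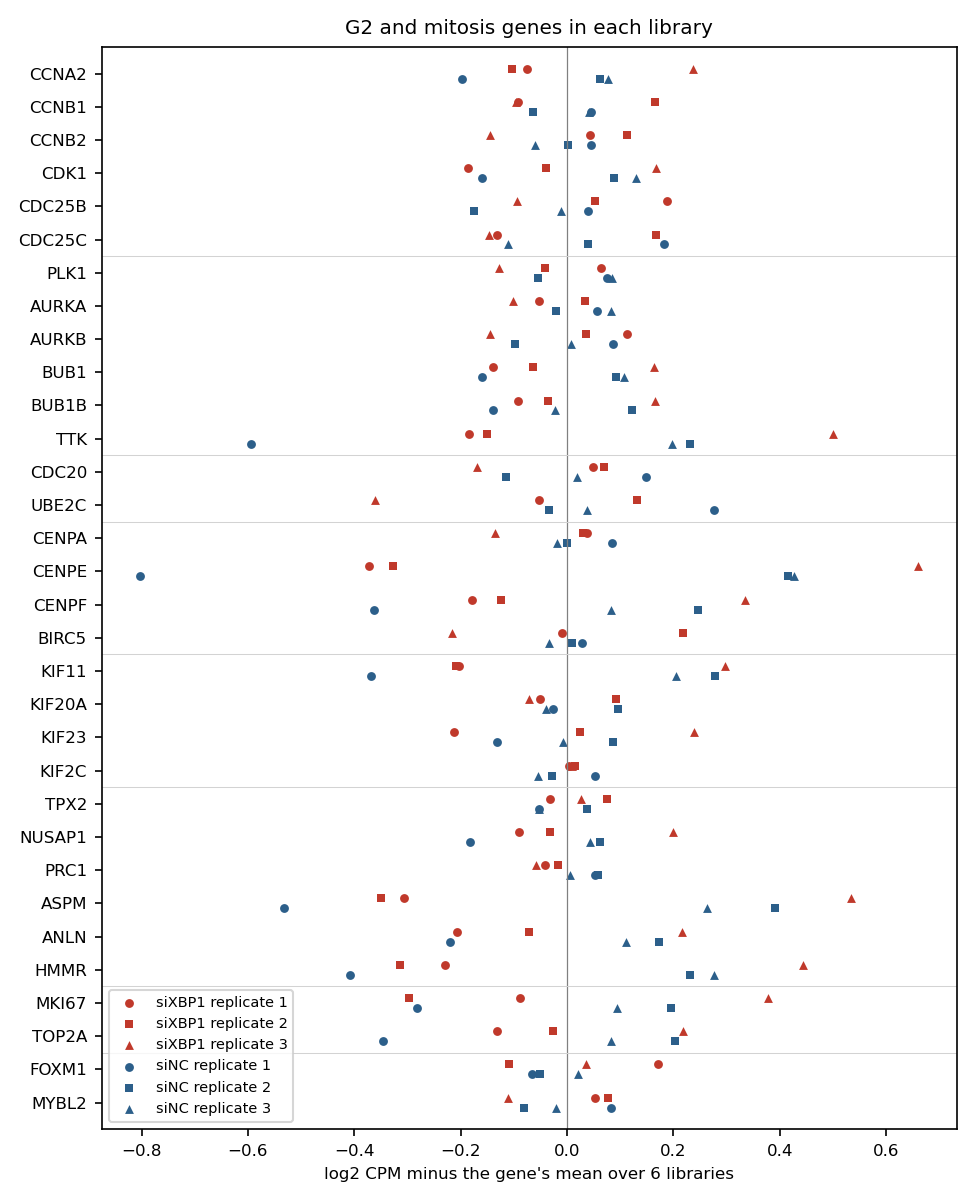
Each point is a library's log2 CPM minus the gene's mean over all 6 libraries, for the 32 genes in rows by role (grey lines part the roles); red marks siXBP1, blue siNC, and the shape gives the replicate. Red and blue points mix in every row except that of PRC1, and the widest row is CENPE, with 46.5 CPM in siXBP1 replicate 3 and 16.9 CPM in siNC replicate 1.

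The 95% intervals show how precisely each change was estimated in these libraries under the model. Each interval is for its gene alone. No label states that the replicates came from separate cultures, so the intervals may reflect technical variation only. They do not bound the change in other cultures. Counts of these genes ran from 520 to 18803 per library. The 95% interval of the log2 fold change lay between -1 and 1, a 2-fold change in either direction, for all 32 genes, and between -0.5 and 0.5 (1.41-fold) for 27. The 5 with wider intervals were TTK, CENPE, KIF11, ASPM and HMMR. Standard errors ran from 0.08 (PRC1) to 0.35 (CENPE).

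**Figure D2:**
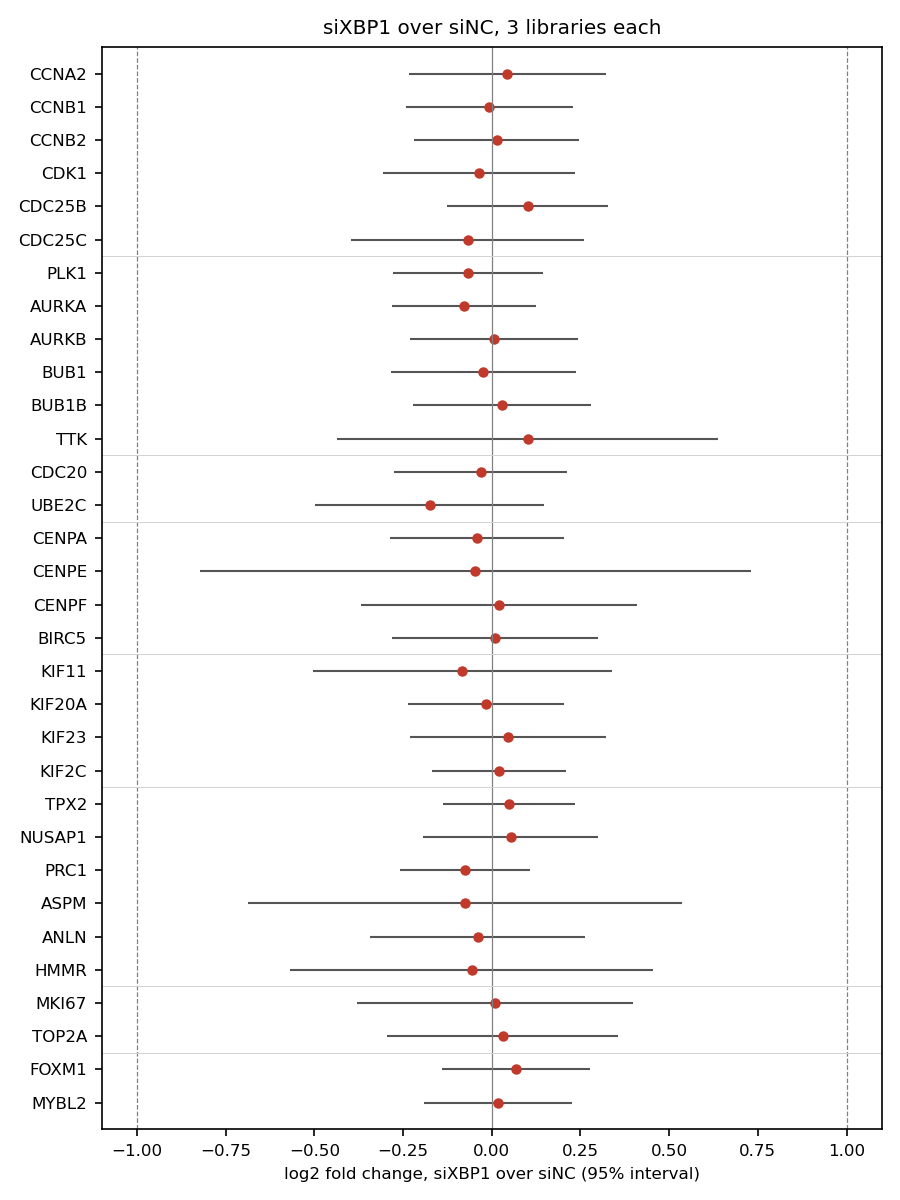
Points are log2 fold changes of siXBP1 over siNC from edgeR (n = 3 each), lines their 95% intervals, and dashed lines a 2-fold change. Every interval includes 0, and the widest, that of CENPE, runs from -0.82 to 0.73.

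Among the cyclins, their kinase CDK1 and the CDC25 phosphatases, which form the engine of mitotic entry, 3 of 6 estimates were higher and 3 lower. CCNB1 (cyclin B1) had 162, 194 and 162 CPM in the siXBP1 libraries, against 179, 166 and 178 CPM in the siNC libraries, a log2 fold change of -0.01 (SE 0.11). CDK1, the kinase it activates, had 123, 136 and 157 CPM in siXBP1, against 125, 148 and 153 CPM in siNC (log2 fold change -0.04, SE 0.12). Neither gene separated the groups, and the highest value of both lay in a siXBP1 library. CCNA2 (cyclin A2), which acts from S phase into early mitosis, had 90.5, 88.8 and 112 CPM in siXBP1, against 83.2, 99.5 and 101 CPM in siNC (0.04, SE 0.12). CCNB2 (cyclin B2) averaged 92.5 ± 8.40 CPM in siXBP1 and 91.8 ± 3.35 CPM in siNC (SD, n = 3 each). The CDC25 phosphatases remove the phosphates that hold CDK1 inactive. CDC25B had 319, 290.2 and 262 CPM in siXBP1, against 288, 248 and 278 CPM in siNC, with an estimate of 0.10 (SE 0.10), the highest of the 32 together with that of TTK. CDC25C averaged 14.8 ± 1.87 CPM in siXBP1 and 15.5 ± 1.58 CPM in siNC, with an interval from -0.40 to 0.26. For CDC25B and CDC25C the libraries of the groups overlapped.

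The mitotic kinases order the events that follow entry, and 3 of 6 had higher and 3 lower estimates. AURKA, which matures the spindle poles, had 128, 136 and 124 CPM in siXBP1, against 138, 131 and 141 CPM in siNC (log2 fold change -0.08, SE 0.09). PLK1, needed for centrosomes, chromosome arms and cytokinesis, had 131, 122 and 115 CPM in siXBP1, against 132, 121 and 133 CPM in siNC (-0.07, SE 0.09). For both genes the siXBP1 mean was below the siNC mean, but the libraries of the groups overlapped. AURKB, the kinase of the chromosomal passenger complex, averaged 88.3 ± 7.92 CPM in siXBP1 and 88.0 ± 5.63 CPM in siNC. BUB1 and BUB1B, of the spindle checkpoint that holds anaphase until chromosomes are attached, averaged 109 ± 12.1 and 89.1 ± 8.54 CPM in siXBP1, against 110.5 ± 11.1 and 87.5 ± 7.95 CPM in siNC. TTK (MPS1), which starts that checkpoint, had 51.3, 52.5 and 82.4 CPM in siXBP1, against 38.6, 68.4 and 66.8 CPM in siNC. Its extremes both lay in single libraries, siXBP1 replicate 3 and siNC replicate 1, and its estimate of 0.10 had an interval from -0.44 to 0.64.

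The partners of the anaphase-promoting complex had the lowest estimate of the 32. CDC20, which activates the complex, had 145, 147 and 125 CPM in siXBP1, against 155, 129 and 142 CPM in siNC (log2 fold change -0.03, SE 0.11). UBE2C, the ubiquitin-conjugating enzyme that serves it, had 79.5, 90.3 and 64.1 CPM in siXBP1, against 99.8, 80.5 and 84.5 CPM in siNC. Its estimate of -0.18 (SE 0.14) had an interval from -0.50 to 0.15 and an unadjusted edgeR p of 0.253, the smallest among the 32 (adjusted p = 0.9998). For both genes siXBP1 replicate 3 was the lowest library and siNC replicate 1 the highest.

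Centromere and kinetochore genes gave 2 estimates on either side of 0. CENPA, the histone variant that marks centromeres, averaged 30.6 ± 2.03 CPM in siXBP1 and 31.5 ± 1.20 CPM in siNC, and BIRC5 (survivin), of the passenger complex, 47.1 ± 7.09 CPM in siXBP1 and 46.9 ± 1.04 CPM in siNC (SD, n = 3 each). CENPE, the kinesin of the kinetochore, had 22.7, 23.4 and 46.5 CPM in siXBP1, against 16.9, 39.2 and 39.5 CPM in siNC. Its highest library exceeded its lowest 2.05-fold within siXBP1 and 2.34-fold within siNC, and the log2 fold change of -0.05 carried an SE of 0.35. CENPF, a large kinetochore protein, had 236, 245 and 337 CPM in siXBP1, against 208, 317 and 283 CPM in siNC (0.02, SE 0.17).

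Of the 4 kinesins, motors that move along or take apart microtubules, 2 had higher and 2 lower estimates. KIF11, which pushes the spindle poles apart, had 87.6, 87.2 and 124 CPM in siXBP1, against 78.1, 122 and 116 CPM in siNC (log2 fold change -0.08, SE 0.19). KIF23, of the centralspindlin complex in cytokinesis, had 149, 175 and 203 CPM in siXBP1, against 157, 183 and 172 CPM in siNC (0.05, SE 0.12). The libraries of both groups were mixed for these genes. KIF2C (MCAK), which removes tubulin from microtubule ends, was even across libraries, with 160.4, 162 and 161 CPM in siXBP1, against 166, 157 and 154 CPM in siNC (0.02, SE 0.08). KIF20A, which acts at the central spindle, averaged 108 ± 6.85 CPM in siXBP1 and 109.9 ± 5.78 CPM in siNC.

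Among the 6 spindle and cytokinesis genes, 2 estimates were higher and 4 lower. PRC1, which bundles the microtubules of the central spindle, had 175, 178 and 173 CPM in siXBP1, against 186, 187 and 180.5 CPM in siNC. All 3 siXBP1 libraries were below all 3 siNC libraries, but the difference was small, with a log2 fold change of -0.08 (interval -0.26 to 0.11, edgeR adjusted p = 0.9998). ASPM, which focuses spindle poles, had 97.8, 94.9 and 175 CPM in siXBP1, against 83.7, 159 and 145 CPM in siNC (-0.08, interval -0.69 to 0.54). HMMR, a spindle-bound hyaluronan receptor, had 41.9, 39.6 and 66.9 CPM in siXBP1, against 37.1, 57.8 and 59.6 CPM in siNC (-0.06, interval -0.57 to 0.46). In both genes siXBP1 replicate 3 was the highest of all 6 libraries and siNC replicate 1 the lowest. ANLN (anillin), a scaffold of the contractile ring, had 281, 308 and 376 CPM in siXBP1, against 278, 365 and 349.9 CPM in siNC (-0.04, SE 0.14). TPX2, which activates AURKA on the spindle, averaged 308 ± 11.4 CPM in siXBP1 and 298 ± 10.8 CPM in siNC, and NUSAP1, which bundles spindle microtubules, 191 ± 20.8 CPM in siXBP1 and 185 ± 16.9 CPM in siNC.

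The chromosome proteins and the transcription factors also overlapped between groups, with all 4 estimates above 0. MKI67, the source of the Ki-67 proliferation marker, had 356, 308 and 492 CPM in siXBP1, against 311, 433 and 404 CPM in siNC (log2 fold change 0.01, SE 0.17). TOP2A, which untangles DNA before chromosomes part, had 373, 401 and 475 CPM in siXBP1, against 321, 469.7 and 432 CPM in siNC (0.03, SE 0.15). For each of them, siXBP1 replicate 3 was again highest and siNC replicate 1 lowest within their groups. FOXM1 and MYBL2, which drive the programme, were steadier. FOXM1 had 222, 183 and 202 CPM in siXBP1, against 189, 191 and 200.4 CPM in siNC (0.07, SE 0.09). MYBL2 had 253, 257 and 226 CPM in siXBP1, against 258, 231 and 240.3 CPM in siNC (0.02, SE 0.09).

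The larger differences among these genes lay between replicates, not between siXBP1 and siNC, and they ran in opposite directions in different genes. For 15 of the 32, siXBP1 replicate 3 was the highest siXBP1 library and siNC replicate 1 the lowest siNC library (46.9%, against 29.1% of all genes tested). They were CCNA2, CDK1, BUB1, BUB1B, TTK, CENPE, CENPF, KIF11, KIF23, NUSAP1, ASPM, ANLN, HMMR, MKI67 and TOP2A. For 10 others the order was the reverse (31.2%, against 29.0% of all genes): CCNB1, CCNB2, CDC25B, CDC25C, AURKB, CDC20, UBE2C, CENPA, BIRC5 and MYBL2. The remaining 7, PLK1, AURKA, KIF20A, KIF2C, TPX2, PRC1 and FOXM1, followed neither. The spread within groups, as the pooled SD of log2 CPM, ran from 0.025 for PRC1 to 0.65 for CENPE, with a median of 0.15, against 0.19 over all genes tested. Within siXBP1, CENPE stood 0.67 above its group mean on the log2 scale in replicate 3 and ASPM 0.57 above it, whereas UBE2C stood at -0.27 and CDC20 at -0.15.

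These opposite patterns went with gene span, the distance in RefSeq from a gene's first to its last annotated base, introns included. The 15 genes of the first pattern had a median span of 40.5 kb, and the 10 of the reverse pattern one of 11.2 kb. The same held over all genes tested, with medians of 63.1 kb for 4165 genes and 13.5 kb for 4156 genes, so that the relation was not confined to the mitotic genes. Across the 32 genes, the deviation of siXBP1 replicate 3 from its group mean had a Spearman rho of 0.66 with span, and that of siNC replicate 1 one of -0.57. The genes share these libraries, so both are descriptions. The long genes CENPE (92.5 kb), ASPM (62.5 kb) and KIF11 (62.3 kb) were among those that varied most, but TPX2 (62.5 kb) hardly varied and CCNA2 (7.44 kb) followed the first pattern. CDC25C (53.1 kb) and MYBL2 (49.4 kb) followed the reverse pattern. TTK (37.9 kb) and HMMR (31.3 kb) had a wider spread within groups, 0.43 and 0.40, than KIF11 with 0.32. Between span and that spread the Spearman rho across the 32 genes was 0.40. The part of gene span in these differences was not tested.

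**Figure D3:**
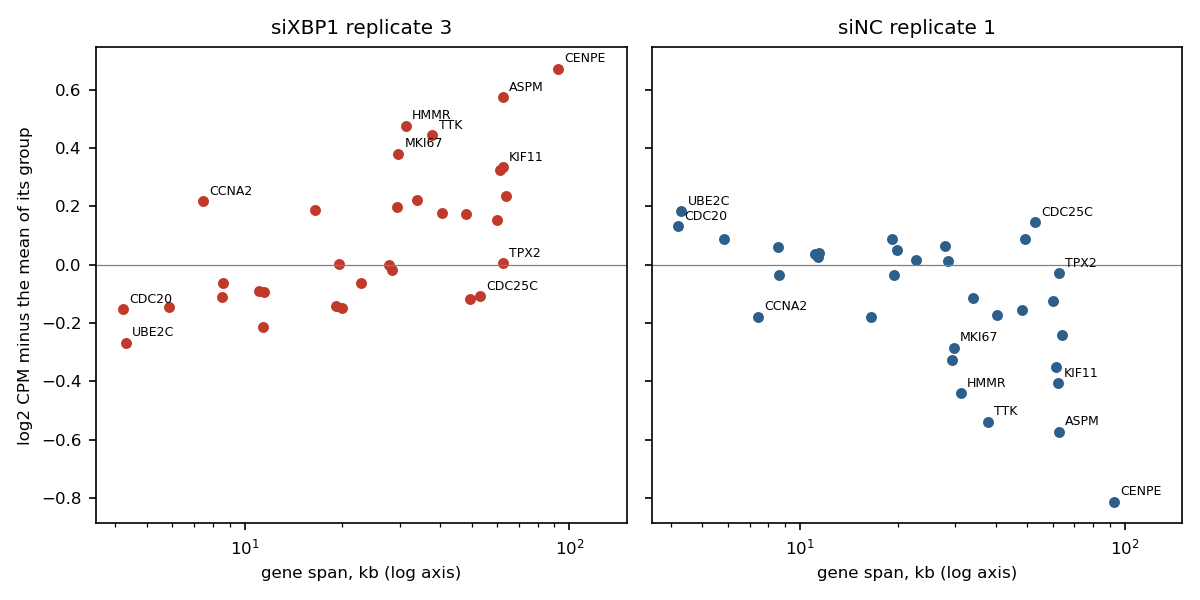
Each point is 1 of the 32 genes, with its span in kb on a log axis and the log2 CPM of 1 library minus the mean of that library's group (siXBP1 replicate 3 left, siNC replicate 1 right). Long genes such as CENPE and ASPM lie high on the left and low on the right, short genes such as UBE2C and CDC20 the other way round, and TPX2 lies near 0 in both.

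With these libraries treated in other ways, some of the genes with wide spread passed the test. When each library's position along the first component entered the model, 1 of the 32 fell, ASPM (log2 fold change -0.26, SE 0.06, edgeR adjusted p = 0.0277), where 1.2% of all genes passed in either direction. Because that component was computed from the same 6 libraries and is taken as known, the p-values of this fit may be too small. With the covariate, 11 of the 32 estimates were higher and 21 lower (median -0.026). An unadjusted edgeR p under 0.05 was found for 6 of the 32, against 1663 of all 14337 genes tested. Leaving out siXBP1 replicate 3 and siNC replicate 1 left 2 libraries per group. In that fit 13 of the 32 estimates were higher and 19 lower (median -0.046). An unadjusted edgeR p under 0.05 was found for 12 of the 32, against 2631 of all 14416 genes tested. By adjusted p, 7 of the 32 fell and 0 rose, where of all 14416 genes tested 3.42% fell and 209 rose. The 7 were CENPE (-0.77, SE 0.11), ASPM (-0.65, SE 0.09), HMMR (-0.52, SE 0.10), KIF11 (-0.44, SE 0.09), TTK (-0.38, SE 0.10), MKI67 (-0.33, SE 0.09) and CENPF (-0.31, SE 0.09), with edgeR adjusted p from 9.21e-06 to 0.0251. In the same fit 18 of 197 genes from 8 lists of other cell cycle genes fell and 3 rose, so that the calls were not confined to the 32. All 7 belong to the 15 genes of the first pattern. For those 15 genes, leaving out the highest siXBP1 library and the lowest siNC library lowers the estimate by construction, so the direction of these calls is no independent result. The 4 libraries left do not overlap on the first component, with siXBP1 at -0.239 and -0.137 and siNC at 0.29 and 0.0817, so that knockdown and position on that component cannot be told apart in this subset. Over all 6 libraries the same 7 genes had estimates from -0.08 (KIF11) to 0.10 (TTK).

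**Figure D4:**
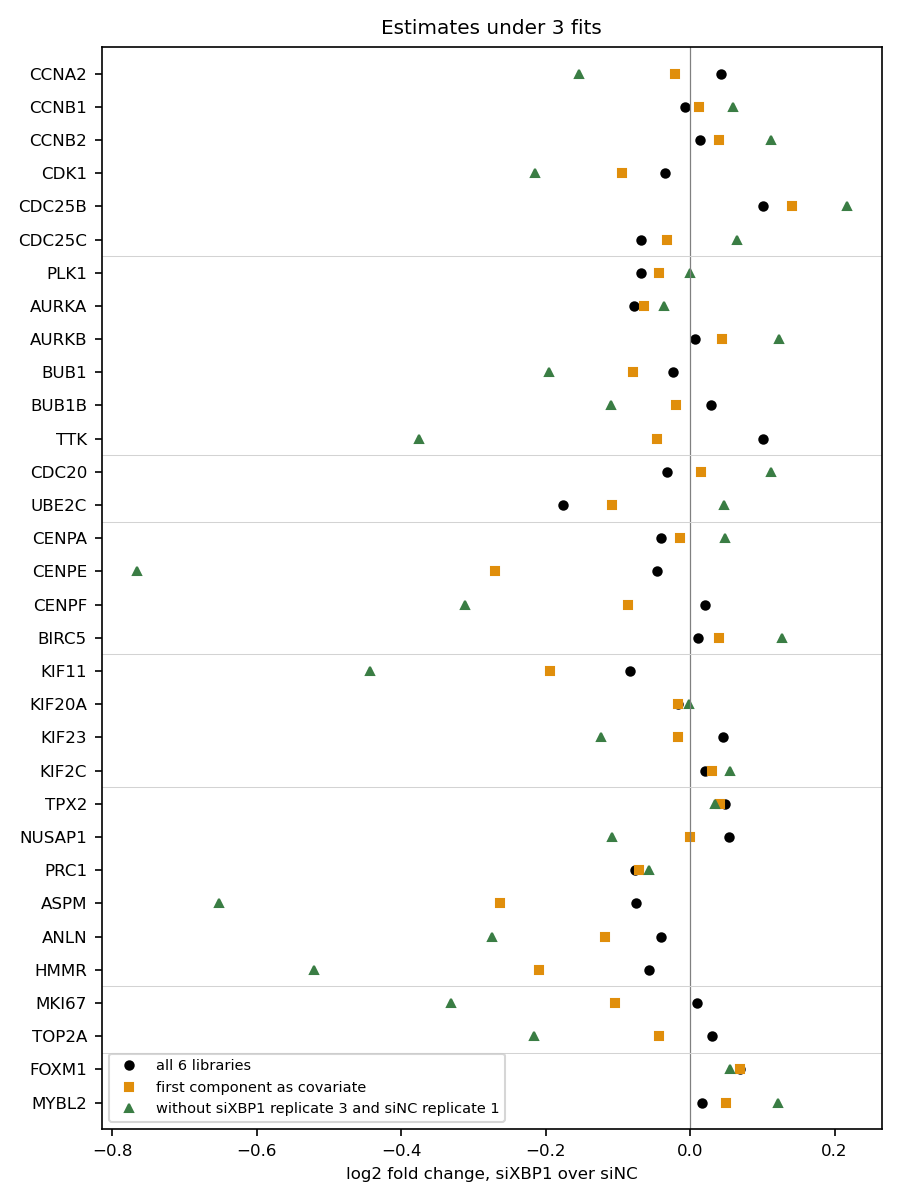
Log2 fold changes of siXBP1 over siNC for the 32 genes from all 6 libraries (black), with the first component as a covariate (orange) and without siXBP1 replicate 3 and siNC replicate 1 (green). Black points lie between -0.18 and 0.10, and the green points of CENPE and ASPM reach -0.77 and -0.65, while PRC1, KIF20A, TPX2 and FOXM1 hardly move.

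These other genes of the cell cycle, 199 in 8 lists, also lay on both sides of 0. Of 197 tested, 103 had higher and 94 lower estimates in siXBP1, with a median of 0.01 (0.0082), and 0 passed edgeR's test with group as the only term or DESeq2. At an unadjusted p under 0.05 edgeR gave 5 of the 197, against 517 of all 14337 genes tested. The groups did not overlap for 9 higher and 6 lower genes, where 8.75% of all genes did not overlap. Of 34 other kinetochore and centromere genes, 19 were higher and 15 lower, and MIS12, of the complex that links centromere and microtubule binding proteins, had -0.24 (SE 0.11). Of 26 other mitotic kinesin and spindle genes, 14 were higher and 12 lower, and KIF18B, a kinesin that shortens astral microtubules, had 52.5, 41.5 and 47.2 CPM in siXBP1, against 57.0, 54.9 and 55.3 CPM in siNC (-0.24, SE 0.11). Of 19 other G2 and mitotic regulators, 11 were higher and 8 lower, and NEK7, a kinase of centrosomes and of the NLRP3 inflammasome, had 0.26 (SE 0.23). Condensin and cohesin genes had 8 higher and 11 lower, with PDS5B, a cohesin regulator, at 0.24 (SE 0.19). The anaphase-promoting complex and checkpoint list had 11 on either side, with the subunit CDC26 at -0.31 (SE 0.14), and with all 6 libraries and group as the only term edgeR called no gene in these 5 lists.

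Upstream regulators and genes of the preceding phases likewise had no member that passed with all 6 libraries and group as the only term. Of 17 genes of the DREAM and MuvB complexes and NF-Y, 9 were higher and 8 lower, with the atypical repressor E2F8 at 7.98, 8.10 and 7.90 CPM in siXBP1, against 5.66, 6.97 and 5.82 CPM in siNC (log2 fold change 0.38, SE 0.15, edgeR adjusted p = 0.9998). Of 49 G1/S and replication genes, 27 were higher and 22 lower. CDC6, which loads the replicative helicase, had 258, 269 and 258 CPM in siXBP1, against 303, 322 and 309.7 CPM in siNC (-0.25, SE 0.08, edgeR adjusted p = 0.9998). Its groups did not overlap, and it passed with the first component as a covariate (edgeR adjusted p = 0.023). Of 12 G1 cyclins and CDK inhibitors, 5 were higher and 7 lower, and CDKN2B, an inhibitor of CDK4 and CDK6, had 113, 111 and 121 CPM in siXBP1, against 92.5, 95.4 and 97.6 CPM in siNC (0.27, SE 0.09), without overlap. With the covariate CDKN2B rose (edgeR adjusted p = 0.0324) and MIS12 fell (0.0111). These 3 were the only calls among the 197 other cell cycle genes tested, where 1.2% of all genes passed. The p-values of that fit may be too small, as stated above. Without siXBP1 replicate 3 and siNC replicate 1, MIS12 passed (edgeR adjusted p = 0.00359), whereas CDC6 (0.070) and CDKN2B (0.166) did not.

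Per library, the lists differed in how they followed the component, and only some of them are given here. The median of the 32 genes, as log2 CPM minus each gene's mean over the libraries, was -0.08, -0.02 and 0.03 in siXBP1 and -0.06, 0.06 and 0.04 in siNC. Condensin and cohesin genes had -0.12, -0.07 and 0.14 in siXBP1, against -0.22, 0.16 and 0.07 in siNC. G1/S genes had -0.0013, 0.06 and -0.04 in siXBP1, against 0.05, -0.0041 and -0.03 in siNC. G1 cyclins and CDK inhibitors had 0.05, 0.05 and -0.15 in siXBP1, against 0.10, -0.04 and 0.06 in siNC. The anaphase-promoting complex and checkpoint list varied less, with -0.02, 0.04 and -0.01 in siXBP1, against 0.0070, -0.0042 and 0.0025 in siNC. In siNC replicate 1 the condensin and cohesin median was the lowest of the 6 libraries, whereas the G1/S median lay above 0. None of the medians given here separated siXBP1 from siNC.

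Several of the 32 genes overlap another gene that has counts, and the strand setting of the counting is not given in the sources used here. This holds for 9 of them, most closely for CDC25C (585 counts on average), which overlaps FAM53C (2033 counts), for CCNA2 with EXOSC9, for KIF20A with CDC23 and for FOXM1 with RHNO1 and ITFG2. AURKA has a pseudogene, AURKAP1, with 91 to 142 counts per library, against 4738 to 5429 counts for AURKA, and reads could pass between them.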

How the data were processed

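Per the submitters' processing notes, reads were aligned with STAR 2.5.2a to hg38 and counted with featureCounts 1.5.0 (Subread). Libraries were made with a stranded TruSeq kit, per the labels' protocols. The values as deposited are whole read counts for each NCBI Gene ID, without normalization by the authors. The 2 ChIP samples and a short text file were not used. Annotation and strand setting: not given in the sources used here. RefSeq symbols (GRCh38.p14) were found for 18526 of 18555 IDs.

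Groups and replicate numbers came from sample titles. Genes passing filterByExpr were TMM-normalized and tested with edgeR 4.0.16 (R 4.3.3), quasi-likelihood, two-sided, group as the only term, with Benjamini-Hochberg adjustment over all genes tested (threshold 0.05). SE is the size of the log2 fold change over the square root of F, and 95% intervals use the model's degrees of freedom. Counts were scaled to 1000000 per library to give CPM. Spreads and deviations use log2(CPM + 0.1). The components were computed from log2 CPM over the 11528 genes averaging 100 counts or more. Alternatives were size factors, library size alone, no filter, DESeq2 1.42.0, the replicate block, the first component as covariate and leaving out libraries. The edgeR and DESeq2 fits of group alone were tested on simulated data. The simulated counts varied less between replicates than these data and had no component shared by many genes. They therefore do not show how the fits behave with such a component. Replicates differed by more than sampling noise, but no label states that they came from separate cultures, and the p-values then reflect only how these samples vary, which may be technical. Among counts from 1 to 40, 75.8% to 80.5% were even. Counting floors of 3 counts play no part for the cell cycle genes named.

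The 32 genes, the 8 companion lists and the alternatives were chosen with earlier results of these data known. All 32 are named. Values per library are given for those with the highest mean CPM in each role group, those passing in any fit and others of interest, chosen after their values were seen. Of each companion list the text names the gene with the largest change among those of at least 5 CPM, none having passed with group as the only term.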

Additional observations from a re-analysis of the deposited data

How the results depend on the processing

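With size factors, library size alone or no filter on low counts, edgeR called 1 gene in all and 0 of the 32, and no named gene changed sign. DESeq2 called 16 genes and 0 of the 32. The first component as a covariate called 172 genes and 1 of the 32, and leaving out both libraries at its ends called 702 and 7 of the 32. Leaving out 1 library at a time called 0 to 1 genes in all and 0 of the 32, with a median for the 32 from -0.062 to 0.035. XBP1 then ranged from -0.88 to -0.80 and lost its call when siXBP1 replicate 1 or 2, or siNC replicate 2 or 3, was left out.

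Estimates near 0 changed sign easily. With 1 library left out, 25 of the 32 and NEK7 did so, with ranges of log2 fold change as follows: CCNA2 -0.085 to 0.095, CCNB1 -0.11 to 0.038, CCNB2 -0.055 to 0.072, CDK1 -0.15 to 0.047, CDC25C -0.19 to 0.0028, AURKB -0.049 to 0.063, BUB1 -0.13 to 0.041, BUB1B -0.064 to 0.092, TTK -0.17 to 0.24, CDC20 -0.10 to 0.032, CENPA -0.078 to 0.00058, CENPE -0.47 to 0.14, CENPF -0.17 to 0.15, BIRC5 -0.12 to 0.097, KIF11 -0.28 to 0.033, KIF20A -0.082 to 0.019, KIF23 -0.084 to 0.15, KIF2C -0.011 to 0.049, NUSAP1 -0.050 to 0.11, ASPM -0.43 to 0.098, ANLN -0.18 to 0.052, HMMR -0.35 to 0.073, MKI67 -0.22 to 0.14, TOP2A -0.12 to 0.14, MYBL2 -0.031 to 0.060 and NEK7 -0.067 to 0.43. With the covariate, the sign turned for CCNA2 -0.021, CCNB1 0.013, BUB1B -0.019, TTK -0.046, CDC20 0.016, CENPF -0.086, KIF23 -0.017, MKI67 -0.10 and TOP2A -0.043. Without both libraries, it turned for CCNA2 -0.15, CCNB1 0.060, CDC25C 0.066, BUB1B -0.11, TTK -0.38, CDC20 0.11, UBE2C 0.047, CENPA 0.048, CENPF -0.31, KIF23 -0.12, NUSAP1 -0.11, MKI67 -0.33, TOP2A -0.22, NEK7 -0.22 and PDS5B -0.054. The cause was not tested.

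The deviations of same-numbered libraries from their group means had correlations of 0.60, -0.36 and 0.43, so the numbers were not taken as pairs. With the replicate block, 1 gene passed, 0 of the 32, their median was -0.0076, and the sign turned for BIRC5 -0.0015 and MKI67 -0.0019. With 3 libraries a group, an exact permutation test of a single gene cannot go below 0.1.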
